A study of Mus musculus with 4 samples.

Results

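Nonagouti-positive epithelial cells were found in the mammary tumors of both mice that carried MMTV-Cre, and they made up 1980 of the 3931 gated epithelial cells of those tumors. The members were chosen by their count of the nonagouti gene itself. A droplet barcode entered the epithelial gate with at least 5000 unique molecular identifiers (UMIs, each standing for 1 captured transcript), at most 20% mitochondrial UMIs, at least 10 UMIs of Epcam, Krt8 and Krt18 together per 10000 UMIs, and no UMI of Ptprc, the pan-leukocyte gene. A gated cell with 2 or more UMIs of nonagouti (symbol a, ENSMUSG00000027596) was called positive, and a gated cell with 0 was called negative. There were 1475 positive, 190 cells with 1 UMI and 292 negative cells in Cre+ replicate 2, and 505, 218 and 1251 in Cre+ replicate 4. The whole series held 34706 barcodes of at least 500 UMIs, 7501 of them in the epithelial gate.

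The study profiled tumors of the mammary gland from 2 mice without Cre (genotype MMTV-Cre-; Frmd8 fl/fl; PyMT, called Cre- replicates 1 and 3) and 2 mice with it (MMTV-Cre+, otherwise alike, called Cre+ replicates 2 and 4), taken at the endpoint of 17 to 18 weeks, to ask what loss of Frmd8 does to the cells of the tumor. All 4 mice carried the floxed Frmd8 allele and the PyMT oncogene, which the promoter of mouse mammary tumor virus drives in mammary epithelium, and the same promoter drives Cre in the Cre+ mice. Each library came from 1 mouse, so that mouse, tumor and library cannot be told apart. The study told littermates of the Cre+ (yellow) and Cre- (black) genotypes apart by the color of the coat.

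Nonagouti encodes the agouti signaling protein, a secreted protein that blocks the melanocortin receptor Mc1r on pigment cells and switches them from black to yellow pigment. In the skin it is made by dermal papilla cells of the hair follicle, and mice in which it is switched on throughout the body have a yellow coat. Frmd8 encodes a scaffold protein that holds the iRhom proteins and the sheddase ADAM17 at the cell surface.

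The libraries did not stand alike. Cre+ replicate 4 was deposited with all 2582424 barcodes, the other libraries with called cells alone (7020, 7411 and 8017 barcodes in replicates 1 to 3), so for replicate 4 the UMI limit of the gate alone separated cells from empty droplets. In replicate 4, 422 of 1974 gated cells (21.4%) had less than 1% mitochondrial UMIs, against 88 of 1957 (4.50%) in Cre+ replicate 2. The median depth of gated cells was 29549 and 26194 UMIs for the Cre- libraries (replicates 1 and 3) and 17060 and 20759 UMIs for the Cre+ libraries (replicates 2 and 4). Any pair of libraries shared between 12 and 26 barcodes of at least 500 UMIs.

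Nonagouti was abundant in the epithelial gate of both Cre+ tumors and close to absent from that of both Cre- tumors. Summed over gated cells, its levels in CPM (UMIs of the gene per 1000000 UMIs counted) were 515 and 115 for Cre+ replicates 2 and 4. In the Cre- libraries it stood at 0.199 CPM (15 UMIs, 95% Poisson interval 0.112 to 0.329) in replicate 1 and 0.150 CPM (9 UMIs, 0.0685 to 0.284) in replicate 3. The genotypes did not overlap, and the Cre+ libraries exceeded the Cre- mean by factors of 2953 and 660. Because nonagouti chose the members, these levels are a description and were not tested. Of 1897 gated cells in Cre- replicate 1, 1 met the rule for a positive cell. Of 1673 in replicate 3, 0 did, which allows a share of up to 0.179% by the limit of 3 counts in the total.

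**Figure D1:**
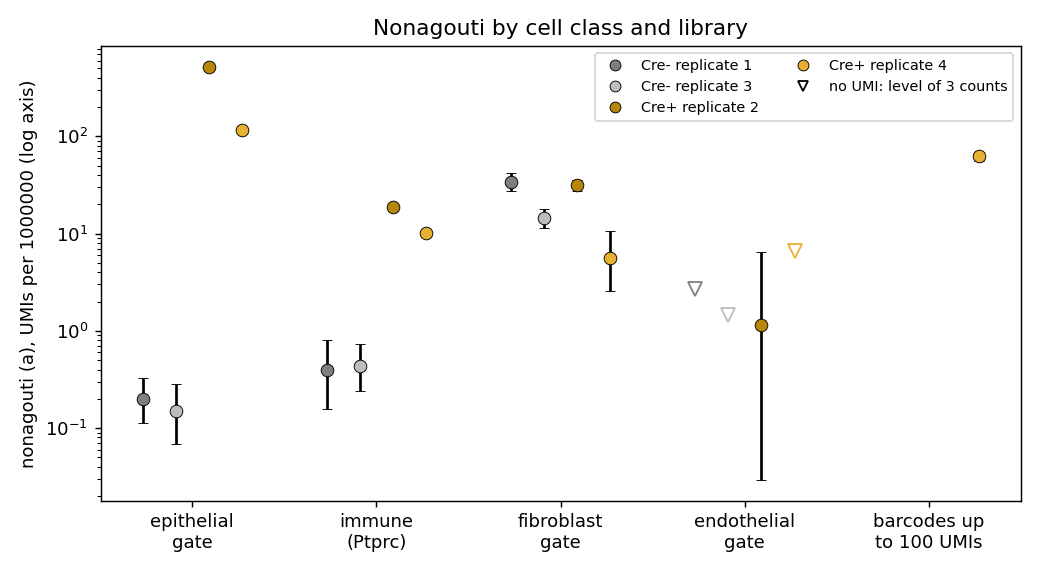
Nonagouti level in CPM (log axis) summed over each cell class, by library. Points carry 95% Poisson intervals for counting error alone, and open triangles mark classes without a nonagouti UMI at the level that 3 counts would give. In the epithelial gate both Cre+ libraries (515 and 115) lie far above both Cre- libraries (0.199 and 0.150), while the fibroblast gate shows no such separation.

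The Cre+ tumors also differed from each other. Nonagouti was 4.48 times as high in replicate 2 as in replicate 4 over gated cells, and 75.4% of gated cells were positive in replicate 2 against 25.6% in replicate 4. When each cell was thinned to 5000 UMIs, so that depth no longer set the chance of counting a transcript, 51.1% and 8.46% of gated cells kept 2 or more nonagouti UMIs, and 68.4% and 19.1% kept at least 1. The corresponding shares with at least 1 were 0.105% and 0.299% in Cre- replicates 1 and 3.

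Immune cells, which are not known to make nonagouti, gave the background level in the droplets, whether from free RNA or from droplets with more than 1 cell, since doublets were not called and single immune cells held up to 95 (replicate 2) and 240 (replicate 4) nonagouti UMIs. They were barcodes of the same depth and mitochondrial limits with a Ptprc UMI and fewer epithelial UMIs than the gate asked for. At 5000 UMIs, a nonagouti UMI was held by 5.33% of 1612 immune cells of replicate 2, whose median depth before thinning was 14379.5 UMIs, and by 2.60% of 2267 immune cells of replicate 4, at 19299 UMIs. The epithelial shares of 68.4% and 19.1% stood well above these, and 2 or more UMIs were kept by 1.55% and 0.662% of immune cells against 51.1% and 8.46% of gated epithelial cells. Immune cells without any UMI of Epcam, Krt8 and Krt18 had lower shares with at least 1 nonagouti UMI, 3.66% of 928 and 2.02% of 1089. For scale, barcodes of at most 100 UMIs in replicate 4 held 310 nonagouti UMIs, or 62.2 CPM, which lies between the levels of its immune cells (10.1 CPM) and its gated epithelial cells (115 CPM).

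Positive cells spanned a wide range of nonagouti levels. In replicate 2 they held a median of 10 nonagouti UMIs (10th percentile 2, 90th percentile 44, highest 306), and in replicate 4 a median of 6 (2, 34 and 282). Relative to depth, their median was 493 CPM in replicate 2 and 170 CPM in replicate 4. At the edge of the rule, 153 cells of replicate 2 and 93 cells of replicate 4 held exactly 2 UMIs, and 190 and 218 held exactly 1. No nonagouti UMI was held by 292 and 1251 cells, and by 1883 and 1664 cells of the Cre- libraries.

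Depth entered the call of a positive cell in both libraries, but in different ways. In replicate 2 the share of positive cells ran from 59.9% of cells with at least 5000 and fewer than 10000 UMIs to 92.3% of cells with 40000 or more, while the nonagouti level ran from 587 CPM to 508 CPM. In replicate 4 the share ran from 4.81% to 58.5% and the level itself ran from 44.0 CPM to 138 CPM. Positive cells were accordingly deeper than negative cells, with median depths of 20813 against 10781.5 UMIs in replicate 2 and 45447 against 14721 UMIs in replicate 4. For this reason the comparisons that follow pair each negative or positive cell with a cell of the other kind of nearly the same depth. Pairing kept 292 of the 1475 positive cells of replicate 2. Their median depth was 10783 UMIs and their median mitochondrial share 9.69%, against 20813 UMIs and 6.83% for all positive cells. In replicate 4 it kept 395 of 505, at a median of 35404 against 45447 UMIs. The paired results describe these shallower cells.

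**Figure D2:**
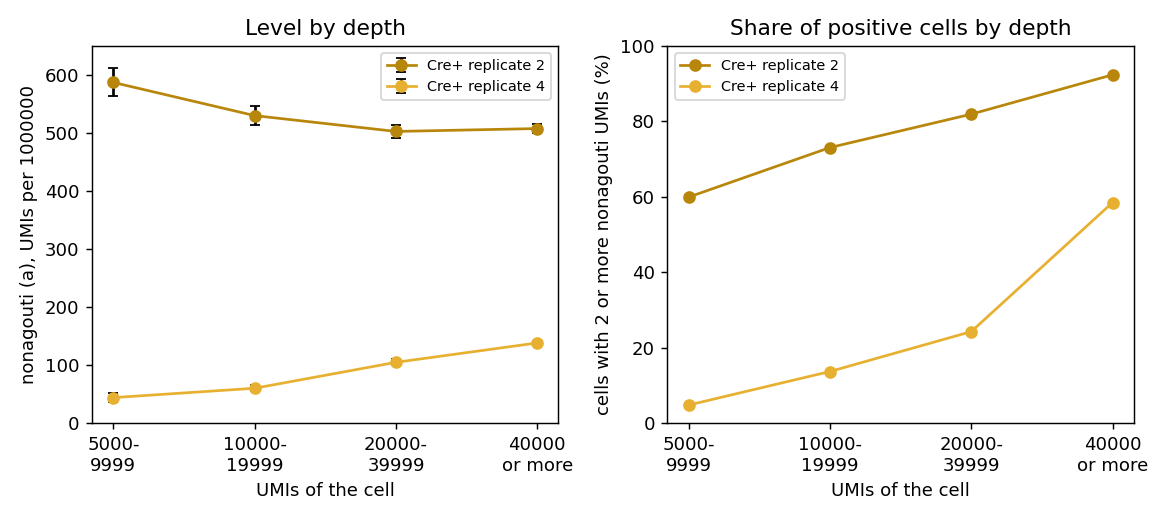
Nonagouti level (left, CPM, with 95% Poisson intervals) and share of gated cells with 2 or more nonagouti UMIs (right, percent) by the depth of the cell, in the Cre+ libraries. The share of positive cells is highest in the deepest cells of both libraries, at 92.3% and 58.5%, whereas the level is higher in deep cells in replicate 4 alone.

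Nonagouti levels differed between groups of epithelial cells in both tumors. Leiden clustering of the gated cells, with nonagouti and Frmd8 left out, gave 12 clusters in replicate 2 and 11 in replicate 4, and positive cells were found in every cluster. In replicate 4 clusters 7 and 8 had low levels (14.0 and 12.6 CPM). Immune cells of that library stood at 10.1 CPM, with 240 of their 500 nonagouti UMIs in 1 cell, and those without any UMI of Epcam, Krt8 and Krt18 at 4.63 CPM. A nonagouti UMI was kept at 5000 UMIs by 4.90% of cluster 7. Of the 99 cells of cluster 8, 1 was positive, and 2.02% kept a nonagouti UMI at 5000 UMIs, against 2.60% of immune cells. Its level rested on 11 UMIs and lay above that of the immune cells whereas its share did not, so it was not told from background. Among clusters of 20 or more cells the level differed by a factor of 6.81 in replicate 2 and 19.5 in replicate 4. In replicate 2 it was highest in cluster 8, led by Scgb2b27, Car6 and Lgr5 (861 CPM), and lowest in cluster 11, led by Krt17, Igfbp3 and Sparc (127 CPM), and in cluster 9, led by Areg, Gpx3 and Cited1 (141 CPM). In replicate 4 the highest was cluster 10, led by Scgb1b27, Car6 and Scgb2b27 (246 CPM), followed by cluster 11, led by Mgp, Acta2 and Spp1 (240 CPM). The lowest there were cluster 8, led by Krt17, 2610528A11Rik and Gng11 (12.6 CPM), and cluster 7, led by the squamous genes Krt6a, Crct1 and Klk6 (14.0 CPM). Car6, a secreted carbonic anhydrase gene, and secretoglobin genes were among the leading genes of the highest cluster in both tumors. They were not particular to those clusters. The secretoglobin gene Scgb1b27 was also among the 10 leading genes of clusters 4, 5, 6 and 8 of replicate 4. Car6 was also among those of cluster 4, which had a nonagouti level of 147 CPM. Clusters led by Krt17 did not stand alike, since cluster 2 of replicate 4, led by Krt17, Ccn2 and Adm, had a level of 66.4 CPM. These levels were not tested, since cells of 1 tumor are not replicates.

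Some clusters had very low mitochondrial shares. In replicate 4, clusters 5, 6 and 8 had median mitochondrial shares of 0.13%, 0.11% and 0.11% and nonagouti levels of 63.4, 40.6 and 12.6 CPM. Cell cycle genes led clusters 5 (Pclaf, Rrm2 and Birc5) and 6 (Ube2c, Birc5 and Cdk1). Cluster 4, led by Scgb1b27, Mki67 and Rrm2 and a median mitochondrial share of 4.15%, had a level of 147 CPM. In replicate 2 the mitochondrial share was low in cluster 10 (0.14%), which had a level of 264 CPM. The part of the mitochondrial share in these levels was not tested.

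**Figure D3:**
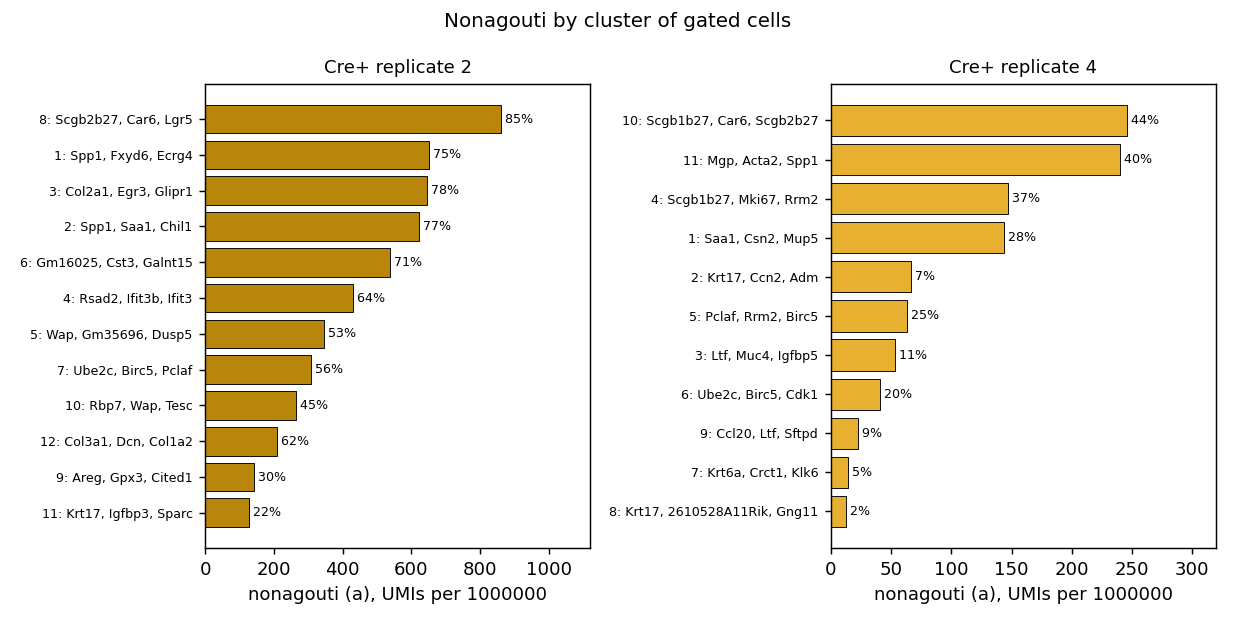
Nonagouti level in CPM in each cluster of gated epithelial cells of Cre+ replicate 2 (left) and replicate 4 (right), with the cluster number and its 3 leading genes. The number at each bar is the percent of its cells that kept a nonagouti UMI after thinning to 5000 UMIs, which runs from 22% to 85% in replicate 2 among clusters of 20 or more cells, and from 2% to 44% in replicate 4.

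Frmd8 (ENSMUSG00000024816), the floxed gene, was lower in the epithelial gate of both Cre+ tumors than in that of both Cre- tumors, and was read next by nonagouti status. Over all gated cells the Cre- libraries stood at 24.3 and 23.9 CPM, Cre+ replicate 2 at 5.51 CPM and replicate 4 at 10.8 CPM. The Cre+ values were 22.9% and 45.0% of the Cre- mean. Immune cells were also lower in the Cre+ libraries, at 20.6 and 15.9 CPM against 29.8 and 26.1 CPM in the Cre- libraries. Barcodes of at most 100 UMIs in replicate 4 stood at 10.4 CPM (52 UMIs), about the level of its epithelial gate, and the part of such RNA in the gated level was not tested. With 2 libraries a genotype, an exact permutation test cannot give a two-sided p below 0.333. The 3′ tags counted here lie at the end of the transcript and do not read the floxed exons, so the count does not check the deletion itself.

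Within the Cre+ tumors Frmd8 did not differ past the threshold between positive and negative cells, although its level was lower in the positive cells of both. Over all gated cells it stood at 5.15 CPM in positive and 8.51 CPM in negative cells of replicate 2, and at 9.67 and 11.8 CPM in replicate 4. Cells with 1 nonagouti UMI, left out of both groups, stood at 6.31 and 11.7 CPM. After pairing on depth, replicate 2 gave 6.99 CPM in 292 positive cells (32 UMIs, 95% Poisson interval 4.78 to 9.87) and 8.51 CPM in 292 negative cells (39 UMIs, 6.05 to 11.6). Replicate 4 gave 9.57 CPM in 395 positive cells (159 UMIs, 8.14 to 11.2) and 13.5 CPM in 395 negative cells (209 UMIs, 11.7 to 15.5). The intervals overlapped in replicate 2 and did not in replicate 4, and they cover counting error alone. In replicate 4 the highest count in a single cell was 21 of the 209 UMIs among negative and 11 of the 159 among positive cells. The gap between those intervals was not tested without such cells. EdgeR's quasi-likelihood test over both libraries, with the library as a block, gave a log2 difference of -0.43 (SE 0.27, adjusted p = 0.701).

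The estimate kept its sign in all 14 fits, between -0.41 and -1.08, and the adjusted p ran from 0.0773 to 1.00. The lowest p came when every cell with a UMI of Krt5, Krt14, Esr1 or Pgr was left out (log2 difference -1.08, edgeR adjusted p = 0.0773). Read against the nonagouti count at a common depth of 5000 UMIs, Frmd8, which was not thinned, stood in replicate 2 at 5.86 CPM in cells with 0 nonagouti UMIs, 6.77 CPM with 1, 5.68 CPM with 2 to 4 and 3.58 CPM with 5 or more. In replicate 4 the corresponding levels were 11.4, 9.82, 7.73 and 9.06 CPM, the last of them from 14 Frmd8 UMIs. These groups were not matched on depth, with medians of 16168 to 19565.5 UMIs in replicate 2 and 18418 to 34430.5 UMIs in replicate 4. Between cells of 5000 to 10000 and of 40000 or more UMIs the Frmd8 level went from 8.77 to 5.03 CPM in replicate 2 and from 4.93 to 11.9 CPM in replicate 4, and the part of depth in the levels by nonagouti count was not tested. All these groups, positive or not, lay below both Cre- libraries.

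**Figure D4:**
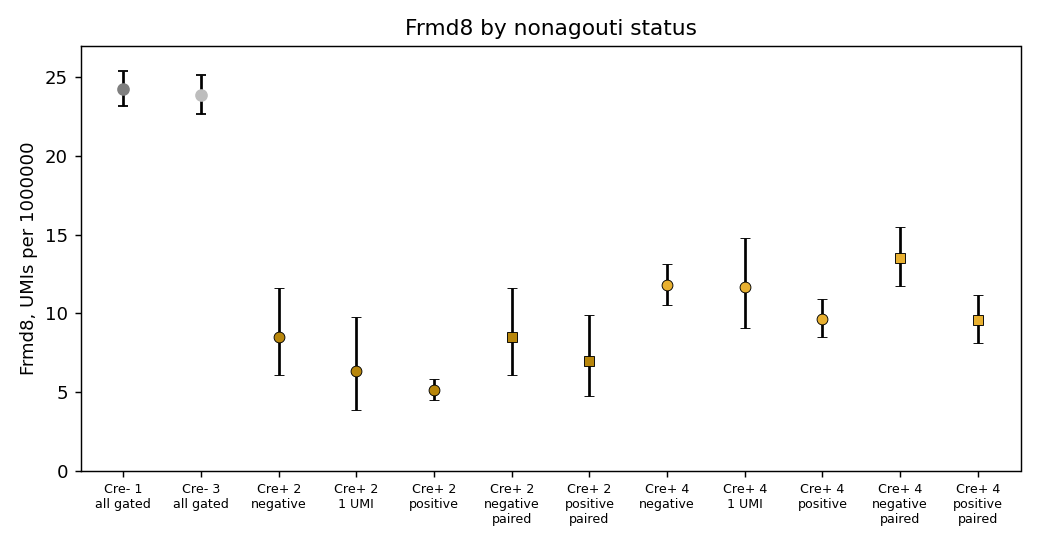
Frmd8 level in CPM with 95% Poisson intervals for counting error, in all gated cells of the Cre- libraries and by nonagouti status in the Cre+ libraries (circles, all gated cells; squares, cells paired on depth). Every Cre+ group lies below the Cre- libraries at 24.3 and 23.9, and the paired positive cells lie at 6.99 and 9.57 against 8.51 and 13.5 in the negative cells.

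Across the transcriptome, few genes separated positive from depth-paired negative cells in the fit over both tumors. Of 13054 genes tested, 62 passed an adjusted p of 0.05 (0.475%), 57 lower (0.437%) and 5 higher (0.0383%) in positive cells. The fit had 4 summed profiles and 1 residual degree of freedom, so that its spread is borrowed largely from other genes. The numbers of calls moved with the choice of cells. When pairs were drawn within the same cluster, 9 genes passed, 6 of them among the 62. Leaving out cells with less than 1% mitochondrial UMIs gave 89, of which 61 were among the 62. Without the library as a block 0 passed, with 169 at an unadjusted p under 0.05 against 1263 in the blocked edgeR fit, and DESeq2 on the same profiles gave 122, 48 of them shared. Of the 62 genes, 53 had a log2 ratio of the same sign in both libraries. In 17 the library with fewer UMIs of the gene held under 10, and 8 genes had no UMI at all in 1 of the libraries. Klk10 was called with opposite signs, at a log2 ratio of 0.87 in replicate 2 (2 against 0 UMIs) and -4.59 in replicate 4.

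Genes higher in positive cells included milk protein genes. Csn3, the gene of kappa casein, stood at 17119 CPM in positive and 9536 CPM in negative cells of replicate 2, and at 5306 and 2223 CPM in replicate 4 (log2 difference 1.03, SE 0.12, adjusted p = 0.0209). The Cre- libraries, not paired on depth, had 8792 and 10669 CPM. Csn2, the gene of beta casein, was counted in replicate 4 alone, at 298 against 40.3 CPM, with no UMI in either group of replicate 2 (adjusted p = 0.0217 by edgeR), so its call rests on 1 tumor.

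Tmem37 encodes a protein related to calcium channel subunits. It stood at 293 against 96.3 CPM in replicate 2 and at 12.3 against 2.65 CPM in replicate 4 (log2 difference 1.84, adjusted p = 0.0227). Hey1, a target and effector of Notch signaling, stood at 189 against 79.7 CPM and at 8.67 against 2.52 CPM (log2 difference 1.45, adjusted p = 0.0497). In these genes positive cells were higher in both tumors, at levels that differed widely between the tumors.

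Ccl5, a chemokine that attracts T cells, stood at 22.9 against 4.15 CPM in replicate 2 and at 20.9 against 6.53 CPM in replicate 4 (log2 difference 1.97, adjusted p = 0.0462), and at 2.11 and 2.01 CPM in the Cre- libraries. Lymphocytes also make Ccl5, and cells with a Ptprc UMI were left out by the gate. The 7 lymphocyte markers, none of which had enough counts to be tested, summed to 1.75 CPM in positive and 2.18 CPM in negative cells of replicate 2 and to 1.81 and 1.55 CPM in replicate 4, with Nkg7 the most abundant and none of the 7 at 0 over both tumors. The part of lymphocyte RNA in the Ccl5 counts was not tested. Ccl5 and Csn2 still passed when pairs were drawn within clusters (adjusted p = 0.0384 and 0.00666), whereas Csn3, Tmem37 and Hey1 did not. Their log2 differences were then 0.52, 1.02 and 0.66, in place of 1.03, 1.84 and 1.45, with edgeR adjusted p-values of 0.0811, 0.323 and 0.539. Cbr2, a carbonyl reductase, came next in the order of p and did not pass (log2 difference 2.11, adjusted p = 0.0512).

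**Figure D5:**
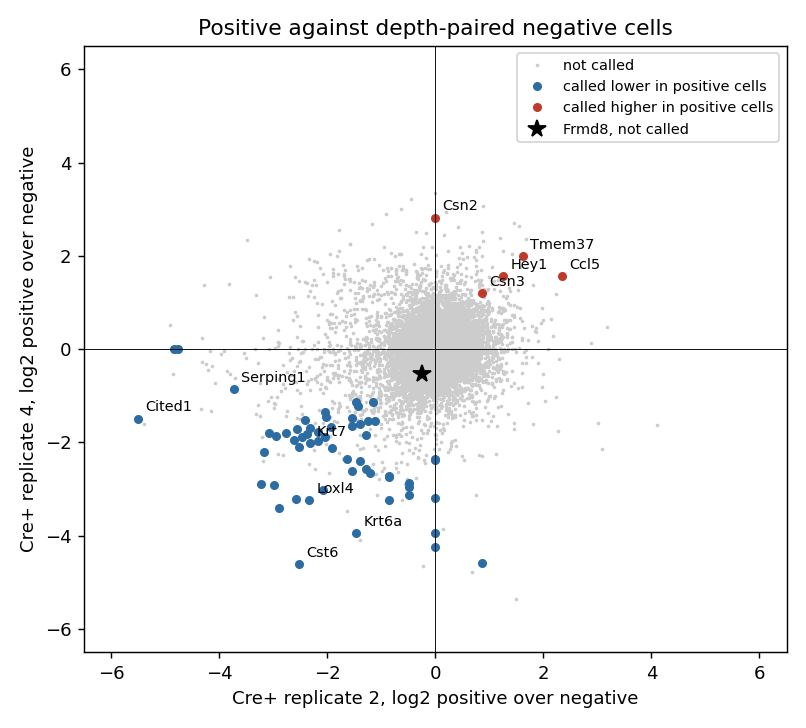
Log2 ratio of positive over depth-paired negative cells in Cre+ replicate 2 (horizontal) and replicate 4 (vertical) for the 13054 genes tested. Points in color are the 5 genes called higher and the 57 called lower in positive cells; Frmd8 (star) was not called, and genes on an axis line at 0 had no UMI in the library of the other axis.

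Some genes were lower in positive cells of both tumors, and others mainly in 1. The 10 with the largest differences among those of the same sign in both were Loxl4, Cited1, Cst6, Serping1, Krt6a, Ly6g6c, Csta1, Mab21l4, Clip4 and AA467197. Ly6g6c, of the Ly6 family of membrane-anchored proteins, stood at 0.874 against 10.0 CPM in replicate 2 and at 2.65 against 31.3 CPM in replicate 4 (log2 difference -3.58, SE 0.31, adjusted p = 0.0143). Clip4, of a family of microtubule-binding proteins, stood at 1.31 against 17.0 CPM and at 2.11 against 18.0 CPM (log2 difference -3.32, adjusted p = 0.0171), and AA467197 at 1.75 against 17.7 CPM and at 3.73 against 30.2 CPM (log2 difference -3.14, adjusted p = 0.0143). These 3 genes were lower in positive cells by similar amounts in both tumors.

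Loxl4, a lysyl oxidase that cross-links collagen, had no UMI in the positive cells of either tumor and 10 and 60 UMIs in the negative cells. Set against a floor of 3 counts in each library, it was at least 3.33-fold lower in positive cells of replicate 2 and at least 21.5-fold lower in those of replicate 4 (edgeR adjusted p = 0.0482). Its level in negative cells, 2.18 and 3.88 CPM, was low as well.

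Cited1, a transcriptional coactivator that marks hormone-sensing luminal cells, differed mostly in replicate 2, where it stood at 2.40 CPM in positive and 135 CPM in negative cells. In replicate 4 it stood at 0.361 against 1.81 CPM (log2 difference over both -4.85, SE 0.65, adjusted p = 0.0344). Serping1, the C1 inhibitor of the complement system, also differed mostly in replicate 2, with 2.40 against 38.9 CPM. In replicate 4 it stood at 0.120 against 0.582 CPM, or 2 against 9 UMIs (edgeR adjusted p = 0.0327). Serping1 was among the 10 leading genes of cluster 12 of replicate 2, at 941 CPM against a median of 1.58 CPM in other clusters. That cluster, led by Col3a1, Dcn and Col1a2, held 8 cells, 6 positive and 2 negative. Their part in the Serping1 counts was not tested.

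Cst6 and Csta1 encode cysteine protease inhibitors of squamous epithelium. Cst6 stood at 4.52 against 117 CPM in replicate 4 and at 3.06 against 20.3 CPM in replicate 2 (log2 difference -4.09, adjusted p = 0.0209). Csta1 stood at 1.20 against 13.8 CPM in replicate 4, with 0 against 1 UMI in replicate 2 (adjusted p = 0.0465). Mab21l4 was likewise counted mainly in replicate 4, at 2.23 against 24.0 CPM, with 0 against 2 UMIs in replicate 2 (edgeR adjusted p = 0.0266). With pairs drawn within clusters, 9 of these 10 genes could be tested, and none of the 9 passed in the edgeR fit. All kept their sign but were much smaller, with log2 differences of -0.39 to -1.61 for the 8 other than Loxl4, which had been -3.14 to -4.85.

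By cell program, members that passed the test stood in 8 of 24 gene lists, against a background of 0.475% of all genes tested and a median log2 difference of 0.01 over them. The alveolar list, genes of milk secretion, had 11 of 12 members tested and 2 called higher (Csn3 and Csn2), with 10 of 11 above 0 and a median of 0.54. The median log2 ratio was 0.34 in replicate 2 and 1.20 in replicate 4. Its summed level was 24842 against 14033 CPM in replicate 2 and 7227 against 3606 CPM in replicate 4. Csn3 alone gave 17119 against 9536 CPM and 5306 against 2223 CPM of these sums. In replicate 2 Wap (67 against 187 UMIs) and Glycam1 (10 against 14 UMIs) were lower in positive cells.

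The hormone-sensing list, genes of estrogen- and progesterone-responsive luminal cells, had 11 of 12 members tested and 3 called lower, with 10 of 11 below 0 and a median of -1.97. These 3 were Cited1, Fxyd2, a regulator of the sodium pump (6.33 against 46.7 CPM in replicate 2, 0.662 against 3.36 CPM in replicate 4, adjusted p = 0.0209), and Ly6a, which encodes the surface antigen Sca-1 (87.8 against 402 CPM and 84.7 against 280 CPM, adjusted p = 0.0171). Summed over the list, positive cells stood at 297 against 1346 CPM in replicate 2 and 177 against 373 CPM in replicate 4, and the Cre- libraries at 1411 and 145 CPM. In replicate 4 Ly6a made up nearly the whole gap in the sum, since members with fewer UMIs in positive cells, such as Areg (121 against 361) and Wnt4 (10 against 32), were offset by the prolactin receptor gene Prlr (946 against 506). The median log2 ratio over the list was -2.17 in replicate 2 and -1.28 in replicate 4. Several members had few UMIs in replicate 4, among them Foxa1 (3 against 5), Pgr (2 against 2) and Esr1 (8 against 3, higher in positive cells). In replicate 2 Esr1 had 22 against 71 UMIs and Pgr 20 against 86. In summed level the Cre- mice differed from each other on this list by more than positive and negative cells did within replicate 2 or 4. With pairs drawn within clusters neither Cited1 (log2 difference -0.39, adjusted p = 0.998) nor Ly6a (-0.08, adjusted p = 0.998) nor Fxyd2 (-1.39, adjusted p = 0.275) passed.

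The keratinocyte list, genes of squamous differentiation, had 8 of 12 members tested, all 8 below 0 over both libraries, with a median of -1.58. The median log2 ratio was -0.49 in replicate 2 and -1.80 in replicate 4. In replicate 2, Klk8 (14 against 9 UMIs) and Krt10 (106 against 99 UMIs) were higher in positive cells. The squamous cluster 7 of replicate 4 held 87 negative and 8 positive cells before pairing. Krt6a, a keratin of wounded and hyperproliferative epidermis, was called lower at 1.53 against 5.24 CPM in replicate 2 and 20.5 against 311 CPM in replicate 4 (log2 difference -3.63, adjusted p = 0.0217). Its partner Krt16 stood at 40.9 against 190 CPM in replicate 4, with no UMI against 16 in replicate 2, and missed the threshold (adjusted p = 0.0511).

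In the basal list 1 of 12 members was called lower, with a median of -0.50 (median log2 ratio -0.76 in replicate 2 and -0.05 in replicate 4). This was Tagln, an actin-binding protein of smooth muscle and myoepithelium, at 6.99 against 64.2 CPM in replicate 2 and 12.0 against 41.6 CPM in replicate 4 (adjusted p = 0.0380). It still passed with pairs drawn within clusters (log2 difference -2.90, adjusted p = 0.0407) but stood at 0.16 on the log2 scale (adjusted p = 0.996) without cells that held a UMI of Krt5, Krt14, Esr1 or Pgr. Krt17, a keratin of basal cells, did not pass (4.59 against 219 CPM and 82.6 against 245 CPM, adjusted p = 0.182). In the luminal identity list 1 of 11 was called lower, with a median of -0.06 (0.02 in replicate 2 and -0.27 in replicate 4). It was Krt7, a keratin of simple epithelia, at 59.0 against 302 CPM in replicate 2 and 175 against 686 CPM in replicate 4 (log2 difference -2.17, SE 0.18, adjusted p = 0.0143). Both tumors gave nearly the same log2 ratio for Krt7, -2.33 and -2.02, and with pairs drawn within clusters the difference was -0.40 (adjusted p = 0.646).

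In the luminal progenitor list 1 of 10 was called lower, with a median of 0.15. The tumors stood on opposite sides of 0, with a median log2 ratio of 0.48 in replicate 2 and -0.09 in replicate 4. The gene called was Aldh1a3, a retinaldehyde dehydrogenase, at 9.83 against 30.1 CPM and 8.07 against 25.3 CPM (log2 difference -1.65, edgeR adjusted p = 0.0380). Elf5, a transcription factor of luminal progenitor and alveolar cells, did not pass (log2 difference 0.69, adjusted p = 0.207). In the list of hypoxia and glycolysis 1 of 14 was called lower, with 11 of 14 below 0 and a median of -0.85. The tumors differed here, with a median log2 ratio of -0.27 in replicate 2 and -1.18 in replicate 4, and a summed level of 2654 CPM in positive against 2515 CPM in negative cells of replicate 2 and of 3740 against 5796 CPM in replicate 4. The gene called was Adm, which encodes the vasodilator peptide adrenomedullin, at 15.9 against 62.2 CPM and 26.3 against 112 CPM (log2 difference -2.05, adjusted p = 0.0171), while the glycolytic enzyme gene Pgk1 had a log2 difference of -0.95 and an adjusted p of 0.0677. In the mesenchymal list 1 of 9 tested members was called lower, with a median of -0.67 (-0.96 in replicate 2 and -0.27 in replicate 4). This was Fn1, the gene of fibronectin, at 16.4 against 69.6 CPM and 5.30 against 13.8 CPM (edgeR adjusted p = 0.0429). Vim, the gene of vimentin, did not pass (log2 difference -0.65, adjusted p = 0.515). With pairs drawn within clusters, Adm did not pass (adjusted p = 0.166), and Aldh1a3 (0.52) and Fn1 (0.39) stood above 0 with an adjusted p of 0.998 each. Over all lists and both directions, 22 genes chosen by the naming rule given below were called, a set without Klk10. Of these, 21 could be tested within clusters, and 3 passed there (Csn2, Ccl5 and Tagln).

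Cell cycle genes stood on opposite sides of 0 in the 2 tumors. The G2 and M phase list had a median log2 ratio of -2.23 in replicate 2 and 1.41 in replicate 4 over 16 genes, and a summed level of 148 against 506 CPM and of 994 against 405 CPM. The S phase list had medians of -0.42 and 1.63. No member of either list was called, and Mcm5, a helicase subunit of replication forks, stood at 7.86 against 8.30 CPM in replicate 2 and 26.7 against 5.30 CPM in replicate 4 (edgeR adjusted p = 0.456). The difference between the tumors was not tested.

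Lists of interferon response (12 members, all below 0 over both libraries, median -0.40, with -0.30 in replicate 2 and -0.55 in replicate 4), lipid synthesis (11 tested, 9 above 0, median 0.42, with 0.02 in replicate 2 and 0.69 in replicate 4) and immediate early and stress genes (14 members, median 0.00) had no member called. In replicate 2 the interferon genes Irf7 (519 against 469), Rtp4 (444 against 377) and Cmpk2 (49 against 47) had more UMIs in positive cells. Usp18 of the interferon list stood at 8.74 against 22.0 CPM and 39.3 against 75.8 CPM (adjusted p = 0.115). Thrsp, a regulator of lipogenesis, stood at 223 against 159 CPM and 679 against 171 CPM (adjusted p = 0.214).

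None of the genes tested next to nonagouti on chromosome 2 was called between positive and negative cells. In the GENCODE M21 annotation the model of nonagouti overlaps that of Raly, an RNA-binding protein gene on the same strand, so that reads in stretches they share cannot be told apart. In the RefSeq annotation of the same build the gene models do not overlap, and the 3′ end of nonagouti, near which 3′ tags fall, lies outside Raly in both annotations. Eif2s2, a translation initiation factor gene on the other strand, lies within the GENCODE model of nonagouti. Raly stood at 109 CPM in positive and 124 CPM in negative cells of replicate 2, at 144 and 136 CPM in replicate 4, and at 138 and 156 CPM in the Cre- libraries (log2 difference -0.06, SE 0.18, adjusted p = 0.956). Eif2s2 had a log2 difference of -0.06 (SE 0.17, adjusted p = 0.947), and Ahcy, the next gene on the far side, one of 0.08 (SE 0.34, adjusted p = 0.969). Of 15 neighbouring genes tested none was called. Their median was -0.06, and the largest differences were those of E2f1 (log2 difference 1.09, SE 0.61, adjusted p = 0.652) and Acss2 (0.63, SE 0.32, adjusted p = 0.609).

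Melanocortin receptors and the ligand genes Pomc and Agrp were each below 2 CPM in the gate of every library. Mc1r, the receptor that agouti signaling protein blocks, had 93 UMIs (1.72 CPM) in replicate 2 and 54 UMIs (0.90 CPM) in replicate 4, and stood at 1.39 and 1.71 CPM in the Cre- libraries. Among paired cells it had 7 UMIs in positive and 5 in negative cells of replicate 2, and 14 in each group of replicate 4. No UMI of Mc3r or Mc4r, receptors of the brain, was counted in the gate of any library. Of the 13 genes listed 4 were tested and none was called. They were Mc1r, Atrnl1 (8.05 to 10.6 CPM over the 4 libraries), Atrn, the attractin gene needed for agouti signaling in skin (11.8 to 15.9 CPM, log2 difference -0.32, adjusted p = 0.748), and Mgrn1, a ubiquitin ligase of the same coat color pathway (17.0 to 26.4 CPM, log2 difference -0.22, adjusted p = 0.852). Of the genes of melanin synthesis, Tyr and Tyrp1 had no UMI in the gate of any library, and Dct had 1, 1, 1 and 2 UMIs in replicates 1 to 4. Slc24a5, an ion exchanger gene needed for pigmentation, stood at 12.0 and 20.4 CPM in the Cre- and at 12.1 and 10.3 CPM in the Cre+ libraries. Among the 10 pigment cell genes 3 were tested and none was called. Sox10, which mammary epithelium also expresses, stood at 123 against 94.7 CPM in replicate 2 and at 108 against 108 CPM in replicate 4 (log2 difference 0.16, adjusted p = 0.854).

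None of 11 tested genes in the list of FRMD8 and its partners was called, and their median was -0.19. Rhbdf2, the gene of iRhom2, stood at 29.7 against 23.8 CPM in replicate 2 and at 23.9 against 35.9 CPM in replicate 4 (adjusted p = 0.886). Ube3a, a ubiquitin ligase gene, stood at 143 against 132 CPM and at 106 against 102 CPM (log2 difference 0.07, SE 0.18, adjusted p = 0.946). Rb1, the retinoblastoma tumor suppressor gene, had the lowest p of the list (log2 difference 0.64, SE 0.22, adjusted p = 0.382), followed by the sheddase gene Adam10 (log2 difference -0.51, SE 0.20, adjusted p = 0.471).

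Markers of other cell types were read in the same sums, since a droplet can hold RNA of more than 1 cell. The 6 fibroblast markers summed to 91.1 CPM in positive and 592 CPM in negative cells of replicate 2 and to 17.6 and 32.6 CPM in replicate 4, with all 6 below 0 and none called. In replicate 2 the collagen gene Col3a1 led them, at 30.6 against 176 CPM, and it stood at 3.07 against 3.17 CPM in replicate 4. Dcn, the most abundant over both tumors and the member that carried the difference in replicate 4, encodes the matrix proteoglycan decorin and stood at 8.08 against 155 CPM and 9.03 against 22.6 CPM (adjusted p = 0.153). The 10 macrophage markers, all below 0 over both libraries with a median of -0.42, summed to 186 against 256 CPM and 93.3 against 121 CPM. Cd74 was the most abundant, at 41.5 against 92.3 CPM in replicate 2 and 22.2 against 25.8 CPM in replicate 4. In replicate 2 C1qa had more UMIs in positive cells (117 against 95). Granulocyte markers summed to 27.5 against 42.1 CPM and 81.2 against 609 CPM, most of it S100a8, which squamous epithelium also makes (adjusted p = 0.168). Endothelial and pericyte markers summed to 44.1 against 54.4 CPM and 2.53 against 3.94 CPM, but their members differed. In replicate 2 the pericyte gene Rgs5, their most abundant, had 5 UMIs in positive and 215 in negative cells, whereas the endothelial genes were higher in positive cells, with 56 against 11 UMIs of Pecam1, 56 against 1 of Cdh5, 25 against 0 of Emcn and 59 against 6 of Kdr. In replicate 4 these 4 endothelial genes had 20 against 9, 5 against 29, 2 against 9 and 8 against 6 UMIs. Over the 4 members tested the median log2 difference was 1.28, with 3 above 0. Adipocyte markers summed to 0 against 8.95 CPM and 0.421 against 0.969 CPM, and erythroid markers to 5.46 against 10.5 CPM and 5.18 against 6.72 CPM. No marker on these lists was called. The sums of fibroblast, macrophage and granulocyte markers were thus higher in negative than in positive cells of the same depth in both tumors. Their part in the genes lower in positive cells, Fn1, Serping1 and Tagln among them, was not tested. In replicate 2, cluster 12, led by Col3a1, Dcn and Col1a2, held 8 gated cells, 6 positive and 2 negative. Its fibroblast markers summed to 18045 CPM, against 69.0 CPM for the summed medians of the other clusters. The part of these few cells in the fibroblast sums of replicate 2 was not tested. Median mitochondrial shares of the paired cells were 9.69% in positive and 7.84% in negative cells of replicate 2 and 4.37% and 4.05% in replicate 4. Before pairing, barcodes under 1% mitochondrial UMIs were 35 of 1475 positive and 36 of 292 negative cells in replicate 2, and 47 of 505 positive and 301 of 1251 negative cells in replicate 4, so they were more common among negative cells of both tumors. With at least 1% mitochondrial UMIs required, an alternative added after seeing the data, 89 genes were called in place of 62.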

How the data were processed

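The authors generated 3′ libraries with Chromium v3 reagents from sorted tumor cells and deposited UMI counts per gene and barcode made with Cell Ranger, version 6.1.2 for replicates 1 to 3 and version 4 for replicate 4 per the file headers. The submitters' notes name a human genome build although all gene identifiers are those of mouse, so the mouse build is not given in the sources used here. The deposited files hold 122658098, 112729231, 126843597 and 157662955 UMIs in replicates 1 to 4.

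Cells were gated as described, with no doublet caller. Within each Cre+ library, positive and negative cells were paired to the nearest depth (within 0.05 on the log10 scale). Raw counts were summed per group and tested with edgeR 4.0.16 in R 4.3.3 (TMM, filterByExpr, quasi-likelihood test, library as block, Benjamini-Hochberg adjustment over all genes tested), with nonagouti, Epcam, Krt8, Krt18, Ptprc and mitochondrial genes left out of the test. The script was tested on simulated data. DESeq2 1.42.0 was an alternative. Clusters were made per library with scanpy 1.11.5 (2000 variable genes, 30 components, 15 neighbours, resolution 0.6). Fibroblast and endothelial gates held no UMI of Epcam, Krt8, Krt18 or Ptprc. Fibroblast gates needed at least 10 UMIs of Col1a1, Col1a2 and Col3a1 per 10000, endothelial gates 3 of Pecam1, Cdh5 and Emcn. Intervals are exact and cover counting error alone. Log2 ratios per library used 0.5 CPM as offset.

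Named genes were Frmd8, all neighbours and FRMD8 partners tested, the 2 members of each other list with the smallest p, and, in each direction, the 10 genes called with the largest difference that had the same sign in both libraries and at least 50 UMIs, filled up to 5 by p. The members and lists were chosen with earlier results of these data known. Each library is 1 mouse, and cells of a library are not independent. With the library as a block, p-values rest on how far the positive-negative differences of the 2 tumors disagree. That spread is borrowed largely from other genes. Settings tried were pairing, thinning, limits on depth, genes and mitochondrial share, the nonagouti minimum, exclusion of basal and hormone-receptor cells, scaling, filter, block and tool. The paper's cell filter is stated as excluding cells inside its limits. It was read here as keeping them.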

Additional observations from a re-analysis of the deposited data

Results flagged for a closer look

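Nonagouti was counted outside the epithelial gate. In Ptprc-positive immune cells, which entered no comparison between positive and negative cells, it stood at 18.6 CPM in Cre+ replicate 2 (500 UMIs in 165 of 1612 cells, up to 95 UMIs in a cell) and at 10.1 CPM in Cre+ replicate 4 (500 UMIs in 131 of 2267 cells, up to 240 UMIs in a cell), against 0.392 and 0.440 CPM (7 and 14 UMIs) in the Cre- libraries. In the barcodes of at most 100 UMIs of Cre+ replicate 4 it stood at 62.2 CPM, and the other libraries hold no such barcodes.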

How the results depend on the processing

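The count of 62 genes called between positive and paired negative cells became 187 with all negative cells and no pairing on depth, 20 with at least 10000 UMIs per cell, 23 with 200 to 5000 genes and fewer than 30000 UMIs, 228 without cells with a UMI of Krt5, Krt14, Esr1 or Pgr, 30 with at most 10% mitochondrial UMIs, 567 with no filter on low counts and 122 with DESeq2. With no replicate block it became 0 (169 at an unadjusted p under 0.05). Pairing within clusters (9 calls) and at least 1% mitochondrial UMIs (89 calls) were alternatives chosen after seeing the data. Thinning all cells to 5000 UMIs in place of pairing (43), RLE size factors (42) and a minimum of 3 nonagouti UMIs (58) stayed within 1.5 times of 62. The cause of these changes was not tested. Frmd8 stayed below 0 and past no threshold in every fit, and was -0.25 to -0.53 (log2) in each library alone. Over 23 other named genes, 327 alternative values included 102 that lost the call, 4 that gained it, 14 from a lone library (6 without replicate 2, 8 without replicate 4) that moved by more than the spread between the libraries, and 3 that changed direction, namely Tagln without cells with a UMI of Krt5, Krt14, Esr1 or Pgr (0.16 on the log2 scale) and, with pairs within clusters, Aldh1a3 (0.52) and Fn1 (0.39). The mean share of positive cells over both Cre+ libraries, 29.8% thinned to 5000 UMIs, was 30.1% at 10000 UMIs or more, 28.4% under the upper limits, 29.3% at 10% mitochondrial UMIs and 50.5% without thinning, and ranged from 8.46% to 51.1% in each library alone. Under the upper limits replicate 4 had 5.40% in place of 8.46%, and replicate 2 had 51.5%. Leaving out either Cre+ library left no residual degree of freedom, so those values carry no test. The paired Frmd8 estimate rested on 32 and 39 UMIs in replicate 2, which limits its precision. No paired analysis across genotypes was possible because the Cre- and Cre+ libraries share no replicate number.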

Other observations

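Nonagouti was counted in the fibroblast gate of both genotypes. Barcodes of the fibroblast gate stood at 34.1 CPM in Cre- replicate 1 (81 UMIs in 17 of 113 cells, up to 26 UMIs in a cell) and at 14.5 CPM in Cre- replicate 3 (79 UMIs in 24 of 195 cells). In the Cre+ libraries they stood at 31.4 CPM (242 UMIs in 47 of 262 cells) and 5.56 CPM (9 UMIs in 7 of 76 cells, at most 2 in a cell). Immune cells that likewise held no UMI of Epcam, Krt8 and Krt18 stood at 0.421 and 0.169 CPM (Cre-) and at 7.29 and 4.63 CPM (Cre+). The interval of the fibroblast gate of Cre+ replicate 4 (exact Poisson, 2.54 to 10.6 CPM, counting error only) holds the immune level of its library, so its count was not told from background. The genotypes overlapped, unlike in the epithelial gate, where the Cre- libraries stood at 0.199 and 0.150 CPM. Endothelial gates held 0 nonagouti UMIs in 3 libraries and 1 UMI in Cre+ replicate 2.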
